A study of Mus musculus with 16 samples.

Results

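Type I interferon response genes were described in livers of mice with a liver-specific knockout of Degs1. The group holds 42 genes, taken by symbol from the 53801 Ensembl genes of the deposited count table, and all 42 were found and passed the filter on low counts that left 14351 genes for testing. It comprises the factors that carry the interferon signal to the nucleus and genes that interferon switches on. Guanylate-binding proteins, immunity-related GTPases and MHC genes were kept apart from it. The 16 livers form 4 groups of 4: liver-specific Degs1 knockout on the high-fat diet, control on the high-fat diet, liver-specific Degs1 knockout on normal chow, and control on normal chow. Degs1 encodes dihydroceramide desaturase, which places the double bond in the ceramide backbone. The labels give no strain, age, sex, diet length, diet composition, promoter of a Cre driver or genotype of the controls, so these are not given here.

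Cells make type I interferons when their sensors meet foreign or misplaced nucleic acid. The secreted interferon binds a receptor made of Ifnar1 and Ifnar2, and the attached kinases Jak1 and Tyk2 phosphorylate Stat2, which joins Irf9 in the complex ISGF3. ISGF3 binds promoters at GAAA-rich elements and switches on a large set of antiviral genes, and in liver both hepatocytes and the resident macrophages, the Kupffer cells, can respond in this way.

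Degs1 itself followed the labels: it was at 26.1 to 41.6 CPM (reads scaled to library size) in high-fat knockouts and 60.2 to 101 CPM in high-fat controls (log2 fold change -1.23, standard error (SE) 0.17, edgeR adjusted p = 0.00376). On chow it was at 35.9 to 39.3 CPM in knockouts and 80.4 to 87.9 CPM in controls (-1.16, SE 0.17, adjusted p = 0.0123), and on either diet the exact two-sided permutation p was 0.0286, which is the lowest value possible with groups of 4. The chow call was lost when any chow library other than chow control 2 was left out, with adjusted p between 0.0568 and 0.118. Libraries held 11938596 to 23250885 counts. Hepatocyte markers (Alb, Apoa1, Ttr, Cps1, Cyp2e1 and Serpina1c) were high in every liver, with summed levels of 58946 to 136904 CPM. Among the libraries, chow knockout 1 had the fewest counts (11938596). High-fat control 3 had the lowest share of counts (0.0218%) on genes annotated as sense-intronic or as TEC, whose transcripts lack experimental proof. Without both libraries the genes called numbered 1219, against 262 with them, for diet in controls and 3273, against 1516, for diet in knockouts. The titles number the animals in separate blocks for each diet and genotype, so anything that goes with animal number cannot be told apart from diet or genotype. Livers are bulk tissue, in which more cells of a type and more RNA per cell cannot be told apart.

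Promoters of 5 OAS and IFIT genes are shown first, because these families had the highest median knockout differences of the 7 roles on the high-fat diet and these 5 windows hold GAAA-rich letters of the kind ISGF3 binds; the windows of Oasl1, Oasl2 and Ifit2 held no match. Capitals mark GAAA, any 2 bases and GAAA again, or the reverse complement of these letters. Each line gives the 250 bases before the RefSeq start site, read 5′ to 3′ on the strand of the gene (RefSeq, GRCm38.p6): Oas1g from chr5:120887614-120887863, minus strand; Oas1a from chr5:120907526-120907775, minus strand; Oas3 from chr5:120777660-120777909, minus strand; Ifit3 from chr19:34583279-34583528, plus strand; Ifit1 from chr19:34640639-34640888, plus strand.
Oas1g: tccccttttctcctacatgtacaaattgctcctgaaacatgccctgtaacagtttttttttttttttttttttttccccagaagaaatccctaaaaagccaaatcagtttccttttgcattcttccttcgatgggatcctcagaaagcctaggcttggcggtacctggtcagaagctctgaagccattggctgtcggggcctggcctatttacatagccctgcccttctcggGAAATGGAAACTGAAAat
Oas1a: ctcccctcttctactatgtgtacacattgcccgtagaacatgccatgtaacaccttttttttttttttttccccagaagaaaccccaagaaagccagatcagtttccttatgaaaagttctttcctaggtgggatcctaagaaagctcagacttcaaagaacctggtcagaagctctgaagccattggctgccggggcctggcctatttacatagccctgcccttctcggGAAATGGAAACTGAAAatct
Oas3: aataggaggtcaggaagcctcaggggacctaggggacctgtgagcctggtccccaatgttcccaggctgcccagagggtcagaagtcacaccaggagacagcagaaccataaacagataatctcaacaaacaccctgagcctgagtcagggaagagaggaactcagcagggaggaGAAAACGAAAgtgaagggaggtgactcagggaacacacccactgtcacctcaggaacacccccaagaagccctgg
Ifit3: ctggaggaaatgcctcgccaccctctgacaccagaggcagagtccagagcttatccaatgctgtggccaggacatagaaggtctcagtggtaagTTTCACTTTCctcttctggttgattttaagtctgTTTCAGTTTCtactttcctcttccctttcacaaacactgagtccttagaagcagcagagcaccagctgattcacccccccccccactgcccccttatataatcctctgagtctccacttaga
Ifit1: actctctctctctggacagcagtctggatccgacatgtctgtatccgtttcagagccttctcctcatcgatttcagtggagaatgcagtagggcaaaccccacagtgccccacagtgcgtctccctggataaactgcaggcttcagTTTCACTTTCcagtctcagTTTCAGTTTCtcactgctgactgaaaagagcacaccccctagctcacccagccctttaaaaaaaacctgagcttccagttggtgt
Oas1g and Oas1a each hold 2 overlapping matches, which together make up the same 16 bases and end 3 and 5 bases before the start site. The stretches around them share an unbroken run of 56 bases. The single match of Oas3 lies 75 to 66 bases before its start site. Ifit3 and Ifit1 each hold 2 separate matches on the opposite strand, and the same 2 spellings occur in the same order in both genes.

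Over the full RefSeq windows, which reach from 250 bases before to 50 after the start site, 31 of the 42 genes had a window and 14 of the 31 (45.2%) held a match, against 1079 of 27025 genes with a window in the whole genome (3.99%). The other members with a match were Ifih1, Ddx58, Isg15, Trim30a, Bst2, Stat2, Rsad2, Eif2ak2 and Ifit3b. The windows of Rnf213 and Uba7, the members with the smallest p on the high-fat diet, held no match. They are printed as well, Rnf213 from chr11:119389849-119390098, plus strand, and Uba7 from chr9:107975317-107975566, plus strand.
Rnf213: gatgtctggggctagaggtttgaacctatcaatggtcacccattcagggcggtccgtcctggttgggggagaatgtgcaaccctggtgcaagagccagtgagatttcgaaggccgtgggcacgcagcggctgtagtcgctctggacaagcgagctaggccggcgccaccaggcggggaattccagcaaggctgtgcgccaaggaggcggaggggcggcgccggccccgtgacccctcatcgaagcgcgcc
Uba7: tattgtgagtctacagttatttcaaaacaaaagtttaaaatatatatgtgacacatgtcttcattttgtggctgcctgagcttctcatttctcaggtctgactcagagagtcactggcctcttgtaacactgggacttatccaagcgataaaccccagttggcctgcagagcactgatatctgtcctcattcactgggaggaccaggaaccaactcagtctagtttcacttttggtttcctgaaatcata
A match describes letters in a window and was not tied to binding here. Only exact matches were counted, so a window without a match can still hold similar letters. The window of Uba7 does, with GAAA repeated on the opposite strand at another spacing. The Rnf213 window lies wholly before the GENCODE start of that gene at position 119393100 of chromosome 11.

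The first comparison asked what loss of Degs1 did to these genes on the high-fat diet. Rnf213, a very large ubiquitin ligase induced by interferon, rose (1.87-fold), and it was the only member past the adjusted threshold of 0.05; that call was lost without any of 5 single libraries, named with its values further on. DESeq2 called 15 members among 578 genes (Irf7, Uba7, Usp18, Dhx58, Zbp1, Oas1b, Oas1g, Oas3, Oasl2, Ifit3, Mx2, Ifi44, Parp10, Parp14 and Rnf213), and edgeR with no filter on low counts called 21 among 964 genes. Beside this 1 of 42 stood 16 of all 14351 genes called in either direction (0.111%), 9 of them higher (0.0627%) and 7 lower (0.0488%). The other 41 did not pass. Of the 42 members, 41 log2 fold changes were above 0, against 52.2% of all genes tested, and 29 of 42 had an unadjusted p under 0.05 with a higher level in the knockouts, against 8.54% of all genes. With a lower level 0 members had such a p, against 12.8% of all genes. In 20 of the 42 every high-fat knockout liver was above every high-fat control liver, against 5.46% of all genes, and in 0 was every knockout below every control, against 7.78%. In 9 of the 42 (21.4%), namely Uba7, Oas1a, Oas1b, Oas2, Ifit3, Mx1, Mx2, Parp10 and Rnf213, all 4 high-fat knockouts were above all 12 other livers, against 1.85% of all genes. The median log2 fold change was 0.77 over the members, which is 1.71-fold, with a range from -0.02 for Parp9 to 2.17 for Oas1g, and 0.03 over all genes tested.

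The livers of the high-fat knockout group were not alike. Knockout 1 was the lowest of its group for 29 of the 42 genes and knockouts 3 and 4 were each the highest for 15. Among high-fat controls, control 1 was the lowest of its group for 25 genes and the lowest of all 16 livers for 20. The members' summed level was 1713, 2037, 2034 and 2004 CPM in high-fat knockouts 1 to 4 and 1210, 1398, 1322 and 1530 CPM in high-fat controls 1 to 4. It was 1353, 1322, 1380 and 1375 CPM in chow knockouts and 1721, 1256, 1406 and 1507 CPM in chow controls, where chow control 1 exceeded the lowest high-fat knockout. The members' median log2 fold change was 0.83 with high-fat knockout 1 left out and 0.62 with high-fat control 1 left out.

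**Figure D1:**
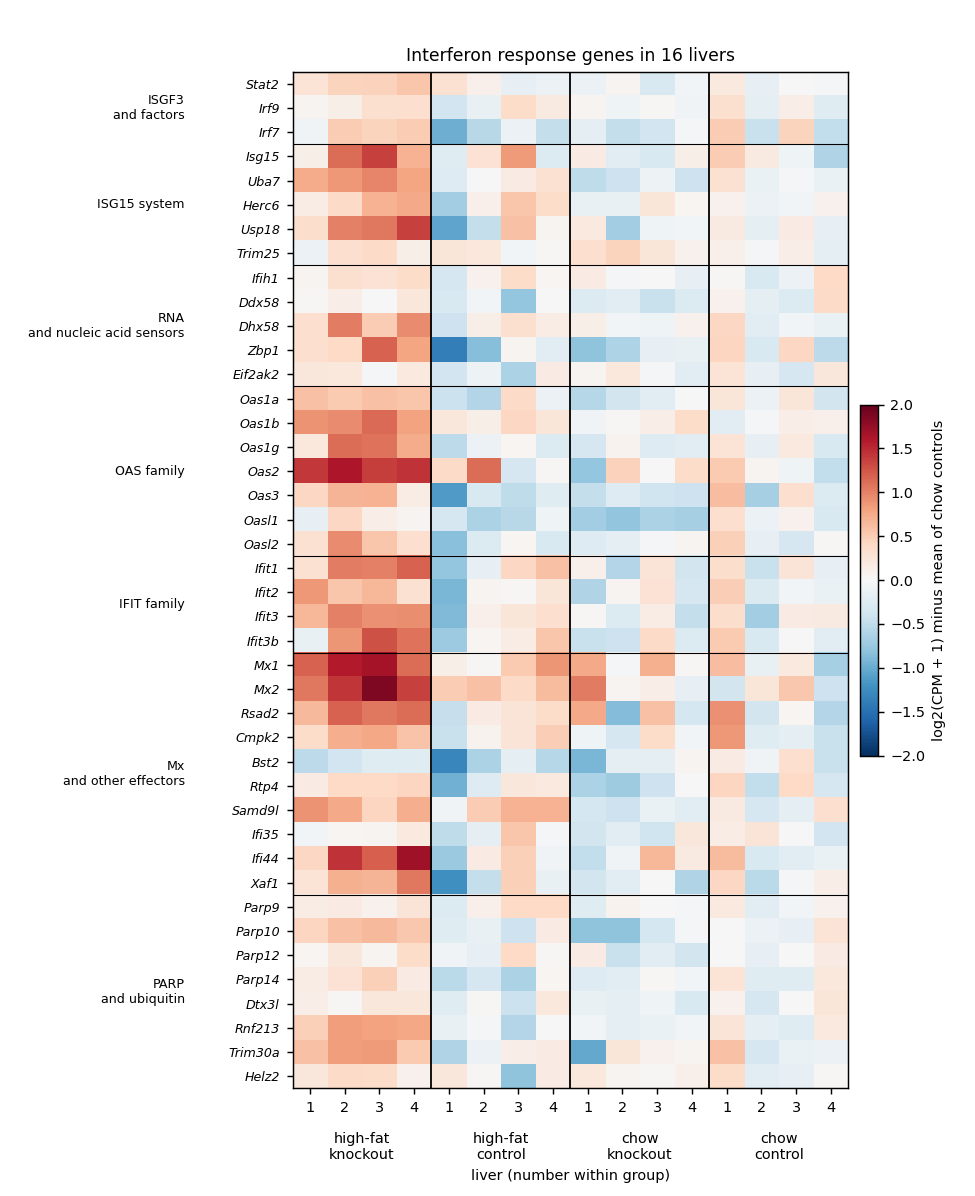
Levels of the 42 genes (rows, grouped by role) in each of 16 livers (columns, numbered within the group), as log2(CPM + 1) minus the mean of the 4 chow controls; red is above and blue below that mean. High-fat knockouts 2 to 4 are red in most rows, high-fat knockout 1 is paler, and high-fat control 1 and the Oasl1 row of the chow knockouts are blue.

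Differences between groups are log2 fold changes from here on, high-fat over chow for the diets. Among the factors, Stat2, the ISGF3 subunit that docks at the receptor, was at 49.9, 56, 56.3 and 60.8 CPM in high-fat knockouts and 50.9, 43.7, 36.3 and 37.6 CPM in high-fat controls. On chow, Stat2 was at 37.8, 42.6, 32.8 and 39.1 CPM in knockouts and 47.1, 36.4, 40.8 and 39.5 CPM in controls. High-fat control 1 lay within the range of the high-fat knockouts, and every chow knockout lay below the high-fat knockouts. The log2 fold change of knockout over control on the high-fat diet was 0.40 (SE 0.13, adjusted p = 0.119). Between the diets, Stat2 rose in knockouts, by a log2 fold change of 0.55 (SE 0.13, adjusted p = 0.0165).

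Irf7, the factor that amplifies interferon gene transcription, was at 35.4, 53.4, 51 and 53.4 CPM in high-fat knockouts and 18.4, 25, 34.3 and 26.3 CPM in high-fat controls, with no overlap. On chow, Irf7 stood at 32.4, 26.5, 28.2 and 36.1 CPM in knockouts and 52.9, 27.1, 50.8 and 25.9 CPM in controls. The chow controls split widely, with controls 1 and 3 as high as the high-fat knockouts. On the high-fat diet the log2 fold change of knockout over control was 0.89 (SE 0.24, adjusted p = 0.0981). Irf9, the DNA-contacting subunit of ISGF3, was at 36.7, 38.4, 44.7 and 45.1 CPM in high-fat knockouts and 27.1, 31.8, 46 and 40.3 CPM in high-fat controls, and on chow at 37.1, 33.4, 35.9 and 33.9 CPM in knockouts and 44.5, 31, 38.8 and 29.6 CPM in controls. All 4 groups overlapped (high-fat knockout over control 0.18, SE 0.16, adjusted p = 0.515).

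The ISG15 system attaches a ubiquitin-like protein, Isg15, to other proteins. Uba7, the activating enzyme that starts this transfer, was at 22.7, 24.8, 27.1 and 23.5 CPM in high-fat knockouts, above all 12 other livers, and 10.9, 13.3, 14.9 and 16.5 CPM in high-fat controls. On chow, Uba7 was at 8.97, 9.6, 12.2 and 9.7 CPM in knockouts and 16.5, 11.9, 12.9 and 11.9 CPM in controls, so the chow knockouts were the lowest group. The knockout difference on the high-fat diet was 0.82 (SE 0.16, adjusted p = 0.0541), just outside the threshold. It was called with DESeq2 (adjusted p = 0.000737), voom (0.0334), upper-quartile scaling (0.046), the CPM filter (0.0449) and no filter (0.00437) and without chow control 1 (0.0476), and over all alternatives the adjusted p ran from 0.000737 to 0.209. Uba7 rose with diet in knockouts by 1.27 (SE 0.16, adjusted p = 0.000524). On the same strand its exons overlap those of Gm20661, so counts could be split between the 2 genes. Irf9, Herc6 and Rtp4 have such overlaps too, with Rnf31, Gm45193 and Gm45338 in that order.

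Usp18, the protease that removes Isg15 and dampens signalling at the interferon receptor, was at 16.3, 26.3, 27 and 34.1 CPM in high-fat knockouts and 5.49, 8.79, 19.3 and 13.1 CPM in high-fat controls. On chow, Usp18 was at 14.5, 7.4, 11.8 and 12.1 CPM in knockouts and 14.3, 11, 14.2 and 11.1 CPM in controls. High-fat control 3 overlapped the lowest knockout, high-fat knockout 1, while the chow livers lay below every high-fat knockout. Usp18 had a log2 fold change of 1.15 (SE 0.30, adjusted p = 0.0981) for knockout over control on the high-fat diet, and Usp18 rose with diet in knockouts by 1.18 (SE 0.30, adjusted p = 0.0222).

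Isg15 itself was at 4.16, 9.31, 11.2 and 6.73 CPM in high-fat knockouts and 3.05, 4.84, 7.65 and 2.95 CPM in high-fat controls, and on chow at 4.39, 3.08, 2.9 and 4.17 CPM in knockouts and 5.81, 4.42, 3.49 and 2.16 CPM in controls. All groups overlapped, and the log2 fold changes were 0.77 (SE 0.35, adjusted p = 0.212) for knockout over control on the high-fat diet and 1.12 (SE 0.36, adjusted p = 0.0511) for diet in knockouts. Of the other members of this system, Herc6, the mouse ligase for Isg15, had a log2 fold change of 0.38 (SE 0.22, adjusted p = 0.309) on the high-fat diet. Trim25, a ubiquitin ligase acting on RIG-I, had 0.08 (SE 0.13, adjusted p = 0.734), with means of 86.4 ± 13.6 CPM in high-fat knockouts and 81.6 ± 7.94 CPM in high-fat controls (SD, n = 4 each).

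Among the sensors, Zbp1, which binds left-handed nucleic acid, was at 7.49, 7.87, 14.2 and 10.6 CPM in high-fat knockouts and 1.56, 2.74, 6.02 and 4.75 CPM in high-fat controls. On chow, Zbp1 was at 2.83, 3.38, 5.01 and 5.05 CPM in knockouts and 8.02, 4.42, 7.96 and 3.65 CPM in controls. The high-fat groups did not overlap, but chow controls 1 and 3 lay among the high-fat knockouts. The log2 fold change on the high-fat diet was 1.41 (SE 0.36, adjusted p = 0.0953), and Zbp1 rose with diet in knockouts by 1.29 (SE 0.36, adjusted p = 0.0312).

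Dhx58, which encodes the RNA-binding regulator LGP2, was at 14.3, 23.7, 16.2 and 22.2 CPM in high-fat knockouts and 8.14, 12.2, 14.2 and 12.5 CPM in high-fat controls. On chow, Dhx58 was at 12.1, 10.7, 10.5 and 12 CPM in knockouts and 15.1, 9.44, 10.7 and 10 CPM in controls. The high-fat groups were apart by a narrow margin, and chow control 1 lay above high-fat knockout 1. Its log2 fold change was 0.70 (SE 0.20, adjusted p = 0.106) for knockout over control on the high-fat diet, and it rose with diet in knockouts by 0.76 (SE 0.20, adjusted p = 0.0259).

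Ddx58, which encodes the RNA helicase RIG-I, was at 54.6, 58.9, 53.8 and 62.8 CPM in high-fat knockouts and 43.5, 51.8, 30.8 and 53.3 CPM in high-fat controls. On chow, Ddx58 was at 44.4, 45.7, 39 and 44 CPM in knockouts and 56.6, 46.9, 43.9 and 70.8 CPM in controls. The high-fat groups did not overlap, yet the highest of all 16 livers was chow control 4, and the log2 fold change on the high-fat diet was 0.36 (SE 0.17, adjusted p = 0.23). Eif2ak2, the kinase PKR, had 0.38 (SE 0.18, adjusted p = 0.23) and Ifih1, the helicase MDA5, 0.20 (SE 0.16, adjusted p = 0.465), each with overlapping groups.

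The OAS family showed the largest group median. Active oligoadenylate synthetases of this family make a messenger that activates an RNA-cutting enzyme when they meet long RNA duplexes. Not every member has this activity, and Oasl1 lacks it. All 7 genes had an unadjusted p under 0.05 on the high-fat diet, 0 of 7 passed the adjusted threshold with edgeR and 4 with DESeq2, and the median log2 fold change was 1.23. Between the diets in knockouts 6 of 7 rose, all but Oasl2. Apart from Oasl1 and Oasl2, which lie 11 kb apart, the family sits in one stretch of chromosome 5, from Oas2 (start 120730333) to Oas1a (end 120907521).

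Oas1g was the member with the largest knockout difference on the high-fat diet and the lowest mean level in CPM. It was at 0.884, 2.52, 2.45 and 1.73 CPM in high-fat knockouts and 0.136, 0.51, 0.677 and 0.35 CPM in high-fat controls. On chow, Oas1g was at 0.293, 0.711, 0.362 and 0.41 CPM in knockouts and 0.968, 0.457, 0.873 and 0.316 CPM in controls. The high-fat groups did not overlap, and only chow control 1 exceeded the lowest high-fat knockout. The log2 fold change was 2.17 (SE 0.51, adjusted p = 0.0872) for knockout over control on the high-fat diet, and Oas1g rose with diet in knockouts by 2.05 (SE 0.51, adjusted p = 0.0187). These values rest on 2 to 49 reads a liver.

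Oas1a, its close copy, was at 5.56, 5.25, 5.6 and 5.39 CPM in high-fat knockouts, the tightest group of the 4 and above all 12 other livers, and 2.24, 1.91, 4.74 and 3.05 CPM in high-fat controls. On chow, Oas1a was at 1.95, 2.37, 2.78 and 3.35 CPM in knockouts and 4.15, 3.05, 4.16 and 2.39 CPM in controls. Its log2 fold change was 0.87 (SE 0.27, adjusted p = 0.112) on the high-fat diet, and it rose with diet in knockouts by 1.05 (SE 0.27, adjusted p = 0.0236). The transcripts of Oas1a share 57.6% of their 50-base runs with Oas1g, and those of Oas1g share 45.2% with Oas1a, so the split of reads between the 2 genes is uncertain.

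Oas1b, annotated as a polymorphic pseudogene because some laboratory strains carry a truncated copy, was at 1.92, 2.01, 2.45 and 1.73 CPM in high-fat knockouts and 0.814, 0.701, 1.08 and 0.85 CPM in high-fat controls. On chow, Oas1b was at 0.488, 0.592, 0.725 and 1.02 CPM in knockouts and 0.346, 0.533, 0.719 and 0.676 CPM in controls. Every high-fat knockout was above all 12 other livers. Oas1b had a log2 fold change of 1.23 (SE 0.33, adjusted p = 0.0983) on the high-fat diet and rose with diet in knockouts by 1.5 (SE 0.34, adjusted p = 0.0131).

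Oas2 was at 5.3, 6.22, 5.17 and 5.46 CPM in high-fat knockouts and 2.1, 4.14, 0.88 and 1.4 CPM in high-fat controls. On chow, Oas2 was at 0.39, 2.25, 1.39 and 2.05 CPM in knockouts and 2.42, 1.45, 1.23 and 0.676 CPM in controls. The high-fat knockouts were close together and above all other livers, of which high-fat control 2 came nearest. On the high-fat diet the difference between genotypes was 1.38 (SE 0.45, adjusted p = 0.118), and Oas2 rose with diet in knockouts by 1.83 (SE 0.46, adjusted p = 0.0209).

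Oas3 was at 3.74, 4.68, 4.74 and 2.93 CPM in high-fat knockouts and 0.61, 1.85, 1.49 and 2 CPM in high-fat controls. On chow, Oas3 was at 1.56, 1.95, 1.69 and 1.64 CPM in knockouts and 4.43, 1.22, 3.44 and 1.94 CPM in controls. The high-fat groups did not overlap, while chow controls 1 and 3 lay within the range of the high-fat knockouts. Knockout over control gave 1.42 (SE 0.37, adjusted p = 0.0977) on the high-fat diet on the log2 scale, and Oas3 rose with diet in knockouts by 1.23 (SE 0.37, adjusted p = 0.0434).

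Oasl1, which in mice restrains translation of Irf7, was at 15.5, 23.6, 19.1 and 18.1 CPM in high-fat knockouts and 13.6, 11, 11.5 and 16.5 CPM in high-fat controls. On chow, Oasl1 was at 10.4, 9.65, 10.9 and 10.7 CPM in knockouts and 22.3, 16.1, 18.4 and 14 CPM in controls, the only member whose chow groups did not overlap. Its chow log2 fold change was -0.76 (SE 0.18, adjusted p = 0.276), against 0.54 (SE 0.17, adjusted p = 0.115) on the high-fat diet, and Oasl1 rose with diet in knockouts by 0.87 (SE 0.18, adjusted p = 0.00728).

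Oasl2, its neighbour, was at 7.17, 11.6, 8.63 and 7.26 CPM in high-fat knockouts and 2.71, 4.46, 5.75 and 4.35 CPM in high-fat controls. On chow, Oasl2 was at 4.49, 4.74, 5.5 and 5.8 CPM in knockouts and 8.16, 4.87, 4.21 and 5.68 CPM in controls. The high-fat groups were apart, and chow control 1 lay among the high-fat knockouts. The log2 fold changes were 1.01 (SE 0.24, adjusted p = 0.0923) for knockout over control on the high-fat diet and 0.75 (SE 0.24, adjusted p = 0.0542) for diet in knockouts.

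The IFIT proteins bind foreign RNA and block its translation, and their genes lie side by side on chromosome 19 from Ifit2 (start 34550694) to Ifit1 (end 34650009). All 4 genes had an unadjusted p under 0.05 on the high-fat diet, with log2 fold changes from 0.77 to 0.97, and 0 of 4 passed the adjusted threshold with edgeR and 1 with DESeq2. Ifit3 was at 19.3, 24.5, 23 and 23.3 CPM in high-fat knockouts and 5.9, 12.7, 14.1 and 15.1 CPM in high-fat controls. On chow, Ifit3 was at 12, 9.48, 13.1 and 8.19 CPM in knockouts and 15.2, 6.85, 13.3 and 13.4 CPM in controls. Every high-fat knockout was above all 12 other livers. The knockout difference was 0.91 (SE 0.26, adjusted p = 0.103) on the high-fat diet, and Ifit3 rose with diet in knockouts by 1.08 (SE 0.26, adjusted p = 0.0172). Of its 50-base runs 51.2% occur in Ifit3b as well, so the split of reads between Ifit3 and Ifit3b is uncertain.

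Ifit1, which recognises RNA caps that lack the host's methylation, was at 14.1, 23.8, 23.5 and 26.7 CPM in high-fat knockouts and 6.17, 9.94, 15.4 and 17.2 CPM in high-fat controls. On chow, Ifit1 was at 12.1, 7.11, 13.7 and 8.47 CPM in knockouts and 14.5, 8, 13.6 and 9.92 CPM in controls. High-fat controls 3 and 4 overlapped high-fat knockout 1. Its log2 fold change was 0.85 (SE 0.30, adjusted p = 0.128) on the high-fat diet, and it rose with diet in knockouts by 1.09 (SE 0.30, adjusted p = 0.0288).

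Ifit2 was at 13.3, 10.5, 11.5 and 8.72 CPM in high-fat knockouts and 3.19, 7.2, 7.04 and 8.3 CPM in high-fat controls. On chow, Ifit2 was at 4.19, 7.17, 8.64 and 5.19 CPM in knockouts and 10, 5.41, 6.52 and 6.18 CPM in controls. The high-fat groups were apart by a narrow margin, and here knockout 1 was the highest of its group and knockout 4 the lowest. The log2 fold changes were 0.77 (SE 0.28, adjusted p = 0.135) for knockout over control on the high-fat diet and 0.79 (SE 0.28, adjusted p = 0.0718) for diet in knockouts. Ifit3b had 0.97 (SE 0.39, adjusted p = 0.173) on the high-fat diet, with 2.39 to 8.05 CPM in high-fat knockouts and 1.29 to 4.5 CPM in high-fat controls.

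**Figure D2:**
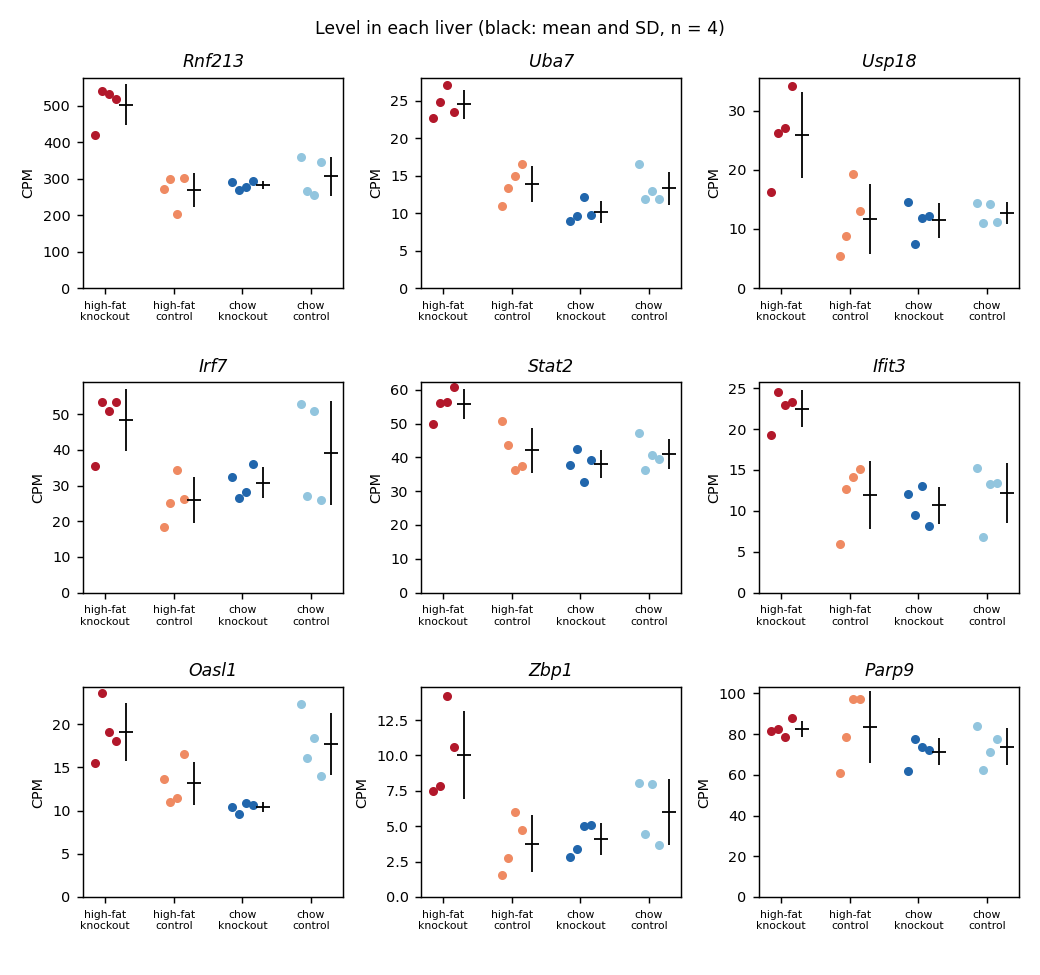
Level in CPM of 9 genes in each of 16 livers, with points for livers, a black bar for the mean and a line for the SD (n = 4), and the axis starting at 0; groups run from high-fat knockout to chow control. The high-fat knockouts stand above the other livers for Rnf213, Uba7 and Ifit3, the chow knockouts are below the chow controls for Oasl1, and the high-fat groups overlap for Parp9.

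Among the effectors, Samd9l, which restrains growth and viral replication, was at 74.1, 66.9, 53.3 and 66.1 CPM in high-fat knockouts and 37.6, 56.6, 64.7 and 64.4 CPM in high-fat controls. On chow, Samd9l was at 30.7, 29.4, 35.8 and 33.8 CPM in knockouts and 44.8, 31.2, 34.5 and 49.8 CPM in controls. The high-fat groups overlapped, and the chow knockouts lay below all of the high-fat livers. Samd9l rose with diet in knockouts by 1.0 (SE 0.18, adjusted p = 0.00439), against 0.48 (SE 0.18, adjusted p = 0.175) for diet in controls and 0.22 (SE 0.18, adjusted p = 0.462) for knockout over control on the high-fat diet.

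Mx2, of the dynamin-like antiviral GTPases, was at 8.01, 10.6, 14.7 and 10.2 CPM in high-fat knockouts and 5.15, 5.48, 4.67 and 5.75 CPM in high-fat controls. On chow, Mx2 was at 7.9, 3.49, 3.75 and 2.87 CPM in knockouts and 2.35, 4.11, 5.29 and 2.25 CPM in controls. Every high-fat knockout was above the other 12 livers, though only just above chow knockout 1. Mx2 had a log2 fold change of 1.04 (SE 0.30, adjusted p = 0.107) on the high-fat diet and rose with diet in knockouts by 1.29 (SE 0.31, adjusted p = 0.0157). Its neighbour Mx1, at 3.06 to 4.9 CPM in high-fat knockouts and 0.892 to 2.45 CPM in high-fat controls, had 1.37 (SE 0.49, adjusted p = 0.134); some laboratory strains carry defective copies of these genes, and Mx2 is annotated as a polymorphic pseudogene.

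Ifi44, an interferon-induced protein with a GTP-binding fold, was at 6.71, 14.7, 12.3 and 17.8 CPM in high-fat knockouts and 2.44, 5.48, 6.97 and 4.5 CPM in high-fat controls. On chow, Ifi44 was at 3.12, 4.5, 8.09 and 5.53 CPM in knockouts and 8.02, 3.66, 4.01 and 4.28 CPM in controls. High-fat knockout 1 lay among the other groups while knockouts 2 to 4 were above all of them. Knockout over control gave 1.40 (SE 0.35, adjusted p = 0.0953) on the high-fat diet on the log2 scale, and Ifi44 rose with diet in knockouts by 1.26 (SE 0.35, adjusted p = 0.032).

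Xaf1, a partner of an apoptosis inhibitor, was at 7.59, 10.6, 10.3 and 13.7 CPM in high-fat knockouts and 2.03, 4.08, 8.87 and 5.4 CPM in high-fat controls. On chow, Xaf1 was at 4.49, 5.09, 6.04 and 3.69 CPM in knockouts and 8.51, 3.88, 5.96 and 6.81 CPM in controls. High-fat control 3 and chow control 1 overlapped high-fat knockout 1. Its log2 fold change was 1.05 (SE 0.33, adjusted p = 0.112) on the high-fat diet, and it rose with diet in knockouts by 1.12 (SE 0.33, adjusted p = 0.0402).

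Of the remaining effectors, Rsad2, the radical SAM enzyme viperin, was at 21.7 to 31.8 CPM in high-fat knockouts and 9.5 to 17.6 CPM in high-fat controls, without overlap (0.94, SE 0.35, adjusted p = 0.146). Cmpk2, the nucleotide kinase encoded beside it at a distance of 12.8 kb, had 0.52 (SE 0.28, adjusted p = 0.288). Rtp4, a chaperone of receptor proteins, had 0.52 (SE 0.27, adjusted p = 0.28), and Ifi35, a signalling adaptor, 0.05 (SE 0.21, adjusted p = 0.904). Bst2, the tether that holds budding virus at the membrane, was the most abundant member per length of exon, at 90.7 CPM per kb over the 16 livers, and ran from 68.7 to 84.4 CPM in high-fat knockouts and from 39.7 to 87.1 CPM in high-fat controls (0.28, SE 0.23, adjusted p = 0.462).

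In the last group, which joins ADP-ribosyltransferases of the PARP family with ubiquitin ligases and a helicase, Rnf213 was at 421, 541, 532 and 519 CPM in high-fat knockouts and 273, 298, 202 and 301 CPM in high-fat controls. On chow, Rnf213 was at 291, 268, 278 and 293 CPM in knockouts and 360, 265, 256 and 347 CPM in controls. Every high-fat knockout was above all 12 other livers, and the means were 503 ± 55.8 CPM in high-fat knockouts and 269 ± 46.1 CPM in high-fat controls (SD, n = 4 each). This gave a log2 fold change of 0.91 (SE 0.15, adjusted p = 0.0257) on the high-fat diet, and Rnf213 rose with diet in knockouts by 0.83 (SE 0.15, adjusted p = 0.00488). The first of these calls was lost without high-fat knockout 2 (adjusted p = 0.143) or 3 (0.0605) and without high-fat control 1 (0.0519), 2 (0.0592) or 4 (0.0521), with log2 fold changes of 0.87 to 0.96. It was lost as well in a fit of the 2 high-fat groups alone (0.91, adjusted p = 0.154). With the share of sense-intronic and TEC counts as a covariate the call was also lost (0.72, adjusted p = 0.184).

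Parp10, a mono-ADP-ribosyltransferase, was at 27.8, 31.1, 32.4 and 30 CPM in high-fat knockouts and 16.9, 18.2, 15 and 22.9 CPM in high-fat controls. On chow, Parp10 was at 11.2, 11.3, 15.6 and 19.7 CPM in knockouts and 20.3, 18.7, 17.9 and 24.8 CPM in controls. Every high-fat knockout was above all 12 other livers, and chow knockouts 1 and 2 were the lowest of the 16. On the high-fat diet the log2 fold change was 0.73 (SE 0.18, adjusted p = 0.0953), and Parp10 rose with diet in knockouts by 1.07 (SE 0.18, adjusted p = 0.00367). Its exons overlap those of Plec on the same strand.

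Parp14, another mono-ADP-ribosyltransferase, was at 88.5, 97.9, 112 and 90 CPM in high-fat knockouts and 54.5, 63.4, 51 and 81.8 CPM in high-fat controls. On chow, Parp14 was at 66.3, 68.6, 81.7 and 76.7 CPM in knockouts and 97, 67.1, 67.5 and 92.2 CPM in controls. The high-fat groups were apart, and chow controls 1 and 4 reached the high-fat knockouts. The log2 fold changes were 0.63 (SE 0.16, adjusted p = 0.0953) for knockout over control on the high-fat diet and 0.40 (SE 0.16, adjusted p = 0.113) for diet in knockouts. Its neighbours on chromosome 16 were closer to 0: Dtx3l, a ubiquitin ligase, had 0.24 (SE 0.15, adjusted p = 0.328), and Parp9, the partner protein of Dtx3l, had -0.02 (SE 0.14, adjusted p = 0.958). Parp9 and Dtx3l lie on opposite strands and overlap, and no source used here says how the counting treated strand. Trim30a, a regulator of inflammatory signalling, had 0.82 (SE 0.27, adjusted p = 0.115) with no overlap between the high-fat groups, Helz2, a nuclear helicase, 0.31 (SE 0.19, adjusted p = 0.334) and Parp12 0.11 (SE 0.15, adjusted p = 0.685).

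The second comparison asked what loss of Degs1 did on chow. Of the 42 members 0 were called (0.0139% of all genes were called in either direction), and the members' median log2 fold change was -0.15, from -0.76 to 0.62, against -0.01 over all genes. Oasl1, Parp10 (-0.50, SE 0.18, adjusted p = 0.449) and Uba7 (-0.39, SE 0.16, adjusted p = 0.492) had an unadjusted p under 0.05 with lower levels in the knockouts, which is 7.14% of the members and 4.42% of all genes, and 0 members had one with a higher level, against 5.1% of all genes. The groups were apart for Oasl1 alone, 2.38% of the members against 2.9% of all genes with lower levels, and 0 members were apart with higher levels, against 3.44%. In 9 of 42 the log2 fold change was above 0, against 49% of all genes. Mx1 had the highest chow log2 fold change (0.62, SE 0.53, adjusted p = 0.707). Chow control 1 was the highest of its group for 30 of the 42 genes, and without it the members' median was -0.04.

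**Figure D3:**
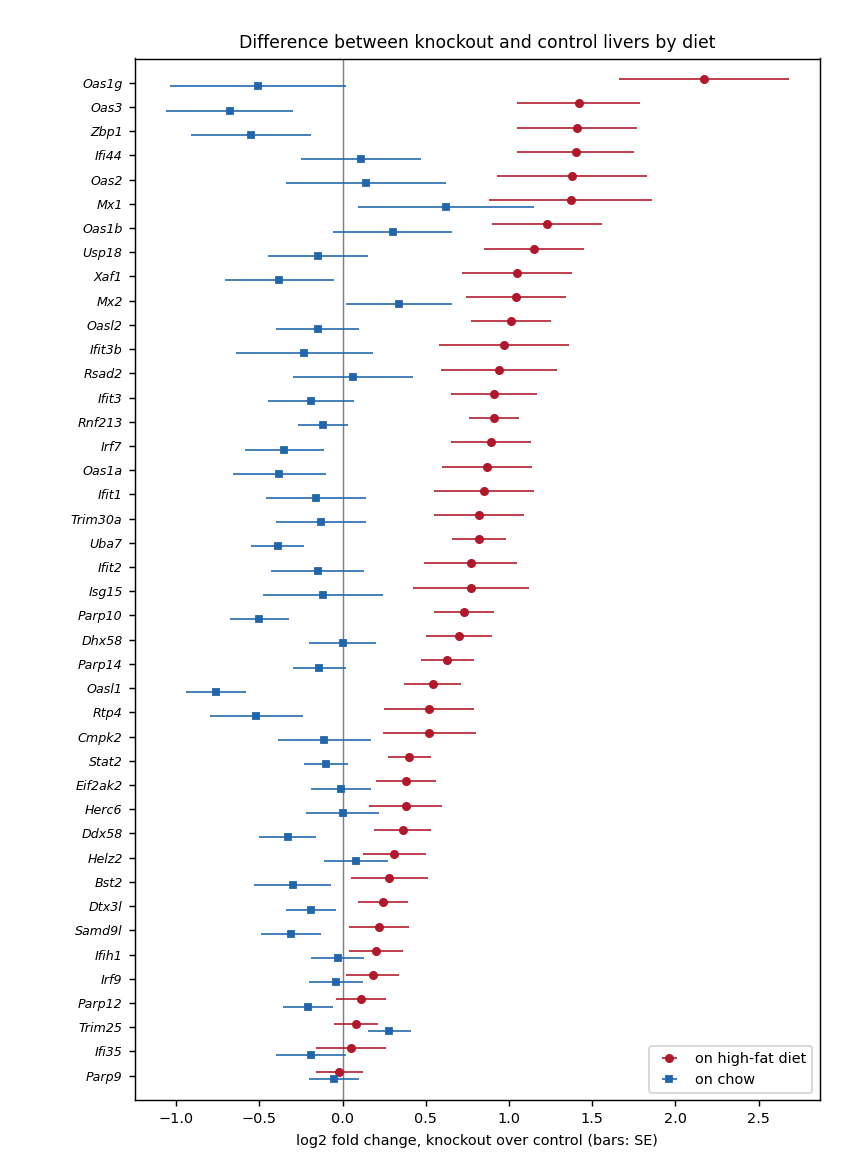
Log2 fold change of knockout over control for each of the 42 genes, with its SE as a bar, on the high-fat diet (red circles) and on chow (blue squares), ordered by the high-fat value. The red points lie above 0 for every gene but Parp9, from -0.02 to 2.17. The blue points lie mostly below 0, with 9 of 42 above it, from -0.76 for Oasl1 to 0.62 for Mx1.

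The interaction asked whether the difference between knockout and control differed between the diets. It was called for 0 of the 42 members and 0 of all genes (0%) by edgeR. With an unadjusted p under 0.05, 24 of the 42 had a positive interaction, against 5.37% of all genes. It was negative in 0 members with such a p, against 5.89%. A positive value means a higher log2 fold change of knockout over control on the high-fat diet than on chow, not a larger size. For Oasl1 these log2 fold changes were 0.54 and -0.76, in that order. The members' median interaction was 0.91 on the log2 scale, against -0.01 over all genes, and 41 of 42 were above 0, against 49.4%. The smallest p-values belonged to Uba7 (1.21, SE 0.22, adjusted p = 0.211), Oasl1 (1.30, SE 0.25, adjusted p = 0.211), Parp10 (1.23, SE 0.26, adjusted p = 0.211) and Rnf213 (1.02, SE 0.22, adjusted p = 0.211). DESeq2 called 6 members for the interaction (Uba7, Zbp1, Oas3, Oasl1, Parp10 and Rnf213) among 71 genes, and edgeR without a filter on low counts called 11 among 259 genes.

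The third comparison asked what the high-fat diet did in knockout livers. Here 19 of the 42 members rose and 0 fell, where 10.6% of all genes were called, 5.21% higher and 5.35% lower. They were Uba7, Usp18, Stat2, Zbp1, Dhx58, Oas1a, Oas1b, Oas1g, Oas2, Oas3, Oasl1, Ifit1, Ifit3, Mx2, Samd9l, Ifi44, Xaf1, Parp10 and Rnf213. With an unadjusted p under 0.05, 34 members had higher levels (14.8% of all genes), in 28 the groups did not overlap (12.1% of all genes), and the median log2 fold change was 0.83, from -0.09 to 2.05, against 0.02 over all genes. Of the 42, 40 were above 0, against 51.9% of all genes. The comparison uses the same high-fat knockout livers as the first and the same chow knockout livers as the second, so its values are not independent of either. Trim25 (-0.09, SE 0.13, adjusted p = 0.689) and Bst2 (-0.08, SE 0.23, adjusted p = 0.846) were the members below 0. Uba7, Rnf213, Parp10, Oasl1, Samd9l, Stat2 and Oas1b, 7 members in all, were called with any library left out, and the other 12 lost the call without at least 1. The count of 19 was 8 or 11 when high-fat knockout 2 or 3 was left out, in that order, and 9 when chow knockout 2 or 4 was left out.

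The fourth comparison asked the same in control livers, where 0 of the 42 members were called and 1.83% of all genes were. The members' median log2 fold change was -0.03, from -0.88 to 0.69, against 0.01 over all genes, and 18 of 42 were above 0, against 51.3%. In 0 members were the groups apart, against 3.21% of all genes with higher and 4.01% with lower levels. With an unadjusted p under 0.05, Samd9l had a higher level on the high-fat diet, and Oas3 (-0.88, SE 0.38, adjusted p = 0.237), Bst2 (-0.66, SE 0.23, adjusted p = 0.136), Irf7 (-0.59, SE 0.24, adjusted p = 0.208), Oasl1 (-0.42, SE 0.17, adjusted p = 0.216) and Parp14 (-0.37, SE 0.16, adjusted p = 0.255) had lower levels. That is 1 of 42 against 9.98% of all genes, and 5 of 42 (11.9%) against 7.09%. Without high-fat control 3 the count of members called was 1, Bst2 (adjusted p = 0.0347), and without high-fat control 1 the members' median was 0.13.

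Members with lower mean levels had larger log2 fold changes. The 21 members with a mean of 0.853 to 15.1 CPM over the 16 livers had a median log2 fold change of 0.97 for knockout over control on the high-fat diet, and 19 of them had an unadjusted p under 0.05. The 21 members with 15.4 to 340 CPM had a median of 0.36, and 10 of them had such a p. For diet in knockouts the medians were 1.12 with 13 called and 0.40 with 6 called. Spearman's rho between mean level and log2 fold change on the high-fat diet was -0.77 across the 42 genes; it is a description, since the genes share libraries and low counts carry larger errors. Rnf213 had both the highest mean level, 340 CPM, and the only call.

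**Figure D4:**
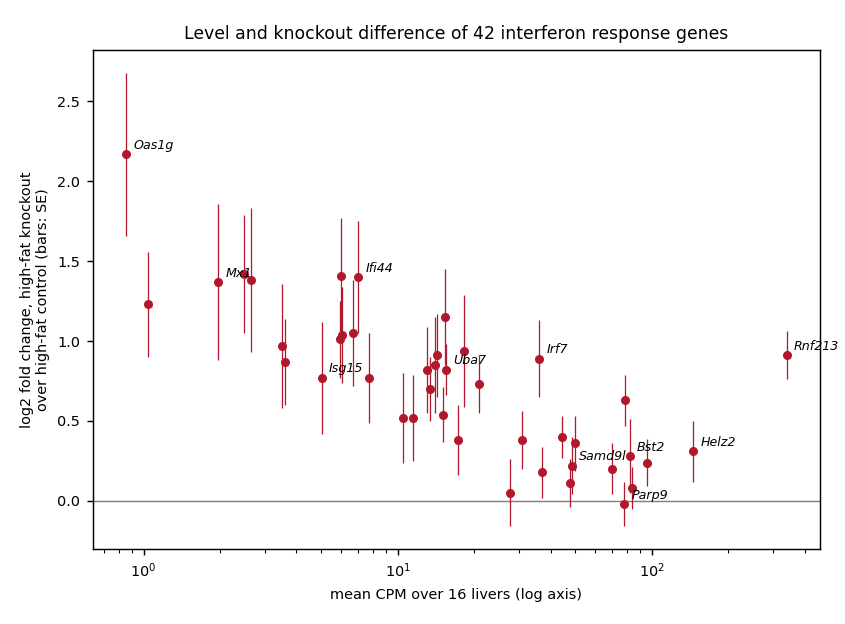
Log2 fold change of high-fat knockout over high-fat control (vertical, bars: SE) against the mean CPM over 16 livers on a log axis, 1 point for each of 42 genes. Values fall from 2.17 for Oas1g at 0.853 CPM towards 0 at higher levels, while Rnf213 stands at 340 CPM with 0.91.

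Upstream of these genes, the interferons themselves were at or near the limit of detection. Of 19 genes for type I and III interferons, 10 had no count in any of the 16 livers, Ifnb1 among them, and 0 could be tested. The most counted, Ifnab, had 5 reads, all in 1 liver. All reads of these 19 genes came from chow knockout 3, where they summed to 1.03 CPM. The sum was 0 in every other liver, the high-fat knockouts included. A count of 0 allows up to 3 counts, which is 0.135 to 0.293 CPM depending on the library, so low production, or production in few cells, was not detectable at this depth. The receptor genes Ifnar1 and Ifnar2 had log2 fold changes of 0.00 and -0.18 for knockout over control on the high-fat diet, and the kinases Jak1 and Tyk2 had 0.01 and 0.38, with adjusted p of 0.2 to 0.994 over the 4, which are named for their place in the pathway; Tyk2 had an unadjusted p of 0.0355. For diet in knockouts these 4 had -0.10, -0.41, -0.08 and 0.25, with adjusted p of 0.117 to 0.638, and Ifnar2 had an unadjusted p of 0.0247.

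Of 15 genes that act upstream in nucleic acid sensing, 14 were tested, and 0 were called for knockout over control on the high-fat diet. Their median log2 fold change was 0.56, and 6 had an unadjusted p under 0.05 with a higher level, against 8.54% of all genes. Between the diets in knockouts 3 of the 14 rose, where 5.21% of all genes were called higher. They were Ikbke, a kinase that activates interferon regulatory factors (0.92, adjusted p = 0.00579), Adar, an RNA-editing enzyme (0.86, adjusted p = 0.00641), and Samhd1, a nucleotide-degrading enzyme (0.63, adjusted p = 0.0317). Mavs, Tbk1 and Irf3, adaptor, kinase and factor of the RNA-sensing pathway and likewise named for their place, had log2 fold changes of -0.01, 0.01 and -0.08 for knockout over control on the high-fat diet. Of 6 negative regulators 5 were tested and 0 were called in that comparison, and Ptpn6, a phosphatase of blood cells, rose with diet in knockouts (0.53, adjusted p = 0.0436).

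Interferon-responsive genes outside the 42 were read from the same fit. For knockout over control on the high-fat diet 0 were called in any of these lists. Over all genes, 8.54% had an unadjusted p under 0.05 with a higher level there, and 5.21% were called higher for diet in knockouts. In 29 further interferon-stimulated genes the median log2 fold change was 0.59 with 15 at an unadjusted p under 0.05, and 11 rose with diet in knockouts: Lgals3bp, Ifi204, Slfn8, Slfn9, Apol9b, Pml, Cxcl10, Psmb9, Ifi27l2b (2.07, adjusted p = 0.0081), Apol9a (1.22, adjusted p = 0.00895) and the peptide transporter gene Tap1 (0.90, adjusted p = 0.0119). In the 15 guanylate-binding and immunity-related GTPase genes, which interferon gamma also induces, the median was 1.09 with 12 at an unadjusted p under 0.05. Of these, 9 rose with diet in knockouts, namely Gbp2, Gbp3, Gbp4, Gbp6, Gbp9, Gbp10, Irgm1, Igtp and Tgtp1. The value of Tgtp1 is uncertain, since it has a near-identical copy. Sequence shared between genes was measured for the 42 members only, so the split of reads among related genes of these lists is not known. Gbp10 was at 15.4, 16.8, 36.8 and 23.6 CPM in high-fat knockouts and 2.78, 5.92, 7.38 and 8.5 CPM in high-fat controls, without overlap (1.91, SE 0.38, adjusted p = 0.0584). In the type II interferon list, where Ifng itself had 14 reads in all, 11 of 12 genes were tested. The list had a median of 0.91, with 7 at an unadjusted p under 0.05 and higher levels. Its members Ciita (2.08, adjusted p = 0.0056), Cd74, H2-Eb1 and H2-Ab1 rose with diet in knockouts, and these are genes of antigen presentation. The 9 MHC class I genes had a median of 0.16 on the high-fat diet, with 3 at an unadjusted p under 0.05 and higher levels. Nlrc5, the activator of class I transcription, rose with diet in knockouts (1.07, adjusted p = 0.0127). Tapbp, a peptide-loading factor, fell with diet in controls (-0.54, adjusted p = 0.0305).

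Markers of other cell types were read in the same livers. Over all genes, 8.54% had an unadjusted p under 0.05 with a higher level for knockout over control on the high-fat diet. In that comparison 0.111% were called in either direction, and 5.21% were called higher for diet in knockouts. Recruited macrophage markers (7 genes: Itgam, Ccr2, Itgax, Gpnmb, Trem2, Cd9 and Ly6c2) summed to 18.4 to 72.5 CPM in high-fat knockouts, 11.3 to 22.5 CPM in high-fat controls, 11.5 to 22.4 CPM in chow knockouts and 15.6 to 21.3 CPM in chow controls. Between the diets in knockouts 4 of the 7 rose, namely Ccr2, Itgax, Gpnmb and Trem2, while Cd9 had -0.84 (adjusted p = 0.124). For knockout over control on the high-fat diet 0 of the 7 were called, with a median log2 fold change of 1.03 and 4 at an unadjusted p under 0.05 with higher levels, the same 4 genes. Within the high-fat knockouts the highest macrophage sum, 72.5 CPM, was in knockout 1, and the lowest, 18.4 CPM, was in knockout 4. T cell markers summed to 3.81 to 17.2 CPM in high-fat knockouts, with the top value in knockout 3, and 2.68 to 3.65 CPM in high-fat controls. On chow they summed to 2.49 to 4.92 CPM in knockouts and 2.62 to 6.29 CPM in controls. Of 5 T cell markers tested 0 were called for knockout over control on the high-fat diet, with a median of 1.53 and 3 (Trac, Cd8a and Lck) at an unadjusted p under 0.05 with higher levels, and Cd8a rose with diet in knockouts (2.85, adjusted p = 0.0227).

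The broad leukocyte markers overlapped between all groups, with 158 to 316 CPM in high-fat knockouts, 146 to 306 CPM in high-fat controls, 149 to 210 CPM in chow knockouts and 125 to 316 CPM in chow controls; 2 of the 5, Ptprc and Cd68, rose with diet in knockouts. For knockout over control on the high-fat diet their median was 0.52. In that comparison 2 of 5 (Ptprc and Laptm5) had an unadjusted p under 0.05 with higher levels, against 8.54% of all genes. Kupffer cell markers overlapped as well, with 226 to 443 CPM in high-fat knockouts, 186 to 501 CPM in high-fat controls, 209 to 354 CPM in chow knockouts and 196 to 567 CPM in chow controls. Markers of plasmacytoid dendritic cells, the main blood source of type I interferon, summed to 0.999 to 3.6 CPM in high-fat knockouts and 0 to 1.6 CPM in high-fat controls. On chow they summed to 0.683 to 1.54 CPM in knockouts and 0.553 to 1.29 CPM in controls, and Siglech was the only 1 of the 5 that could be tested. Neutrophil markers summed to 4.73 to 10.5 CPM in high-fat knockouts, 3.5 to 7 CPM in high-fat controls, 1.43 to 4.68 CPM in chow knockouts and 1.76 to 4.52 CPM in chow controls, and Csf3r rose with diet in knockouts (1.38, adjusted p = 0.0288). Natural killer cell markers summed to 1.4 to 3.57 CPM in high-fat knockouts and 0.573 to 1.2 CPM in high-fat controls. On chow they summed to 0.273 to 1.39 CPM in knockouts and 1.13 to 1.38 CPM in controls. The lowest high-fat knockout, at 1.4 CPM, was thus barely above the highest chow knockout, at 1.39 CPM. Only 1 of the 5 natural killer markers could be tested. Markers of B cells, endothelial cells, stellate cells and cholangiocytes overlapped between the high-fat groups. The stellate marker Cygb rose with diet in knockouts (0.57, adjusted p = 0.0283) and had 0.72 (adjusted p = 0.0726) for knockout over control on the high-fat diet. The 6 stellate markers had medians of 0.04 and -0.01 in these comparisons, in that order. For diet in knockouts 1 of the 6 had an unadjusted p under 0.05 with a lower level, against 14% of all genes.

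The hepatocyte sum was 58946 to 81177 CPM in high-fat knockouts and 79695 to 115831 CPM in high-fat controls. On chow it was 116190 to 136904 CPM in knockouts and 105938 to 124803 CPM in controls, so the high-fat knockouts were the lowest group. Of its 6 genes 0 were called for knockout over control on the high-fat diet, with a median of -0.33. With an unadjusted p under 0.05, 2 (Cyp2e1 and Serpina1c) had lower levels, against 12.8% of all genes. Alb, the main plasma protein, fell with diet in knockouts (log2 fold change -1.0), where 5.35% of all genes were called lower. The 6 markers had a median of -0.46 for diet in knockouts. Of them 4 had an unadjusted p under 0.05 with lower levels, against 14% of all genes. Over all 12 cell type lists 0 markers were called for knockout over control on the high-fat diet, where 0.111% of all genes were called. Each marker had a read in at least 1 of the 16 livers. The part of other cell types in the interferon values was not tested.

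RNA composition differed between the groups as well. The TMM factors that scale the libraries were 1.108 to 1.209 in high-fat knockouts and 0.879 to 1.069 in high-fat controls. On chow these factors were 0.859 to 0.963 in knockouts and 0.893 to 0.965 in controls. Genes annotated as sense-intronic or as TEC held 0.162% to 0.191% of counts in high-fat knockouts and 0.0218% to 0.164% in high-fat controls. They held 0.0463% to 0.0878% in chow knockouts and 0.0263% to 0.0411% in chow controls. Unspliced RNA itself was not measured. Within the high-fat controls this share was 0.164% in control 1 and 0.0218% in control 3. With this share as a covariate, an alternative added after the data were seen, the members' median log2 fold change was 0.90 for knockout over control on the high-fat diet with 0 called, and 1.02 for diet in knockouts with 19 called.

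**Figure D5:**
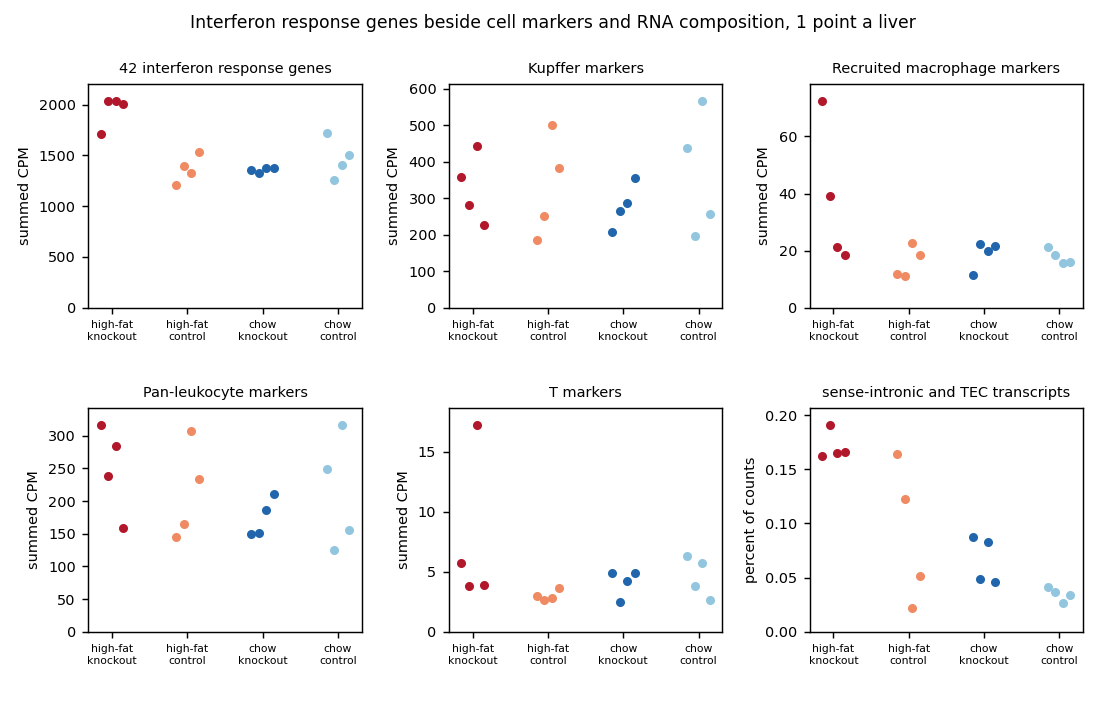
One point for each of 16 livers: summed CPM of the 42 interferon response genes, of Kupffer, recruited macrophage, broad leukocyte and T cell markers, and the percent of counts on sense-intronic and unproven (TEC) transcripts; axes start at 0 and groups run from high-fat knockout to chow control. The interferon sum was 1713 to 2037 CPM in high-fat knockouts, and the macrophage sum was 18.4 to 72.5 CPM in that group. The Kupffer and leukocyte sums overlapped between all groups.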

How the data were processed

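RNA from 16 mouse livers, 4 in each of 4 groups, was sequenced by the study's authors; per the labels' protocols, total RNA was depleted of ribosomal RNA and made into strand-marked libraries. The values are raw read counts per Ensembl gene in 1 table deposited by the authors. STAR 2.5.4a, featureCounts 1.5.1, DESeq2 and the build GRCm38 are named, without their roles, per the submitters' processing notes; the strand setting, the treatment of reads that map to several places and the annotation used for counting are stated in no source used here. Symbols and positions were taken from GENCODE M21, which named 53620 of the 53801 IDs.

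Genes with low counts were removed (filterByExpr, minimum count 10), libraries were scaled by TMM, and 1 model with a mean for each group was fitted to all 16 livers by edgeR 4.0.16 (quasi-likelihood F test, R 4.3.3), with Benjamini-Hochberg adjustment over the 14351 genes tested and a threshold of 0.05. The SE of a log2 fold change is its size divided by the square root of F. Levels are CPM over TMM-scaled totals, with 11938596 to 23250885 counts a library; 3 counts, the limit that a count of 0 allows, are 0.135 to 0.293 CPM, and this covers counting error only. Promoter matches were counted over 32851 RefSeq windows. The script was tested on simulated data.

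The 24 pairs of livers within a group differed beyond sampling noise (chi-square per degree of freedom 12.3 to 126). Nothing in the labels beyond separate animal numbers describes the animals, and p-values measure the spread between these samples. Levels in every liver are given for members called in any comparison and, in each role, for up to 3 members with the smallest p on the high-fat diet; other genes are named where called or, with their values already seen, for their unadjusted p or their place in the pathway, and 1 result is not reported here. The members and lists were chosen with earlier results of these data known, so no test over a list is given. Alternatives were DESeq2 1.42.0, limma 3.58.1 with voom, other scalings, other filters, only the groups compared and each library left out. High-fat control 3 and chow knockout 1 were also left out together because they stood apart in earlier results. The last alternative was a covariate for the share of sense-intronic and TEC counts.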

Additional observations from a re-analysis of the deposited data

Results flagged for a closer look

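In 108 groups of 4 livers, 27 genes in each of 4 groups, the highest or lowest liver was compared with the gap to its nearest neighbour, and 2 groups held a liver far from the other 3; chance flags about 1 in 20 groups. Ifi44 was at 8.02 CPM in chow control 1, against 3.66 to 4.28 CPM in the other 3 chow controls. Irf7 was at 35.4 CPM in high-fat knockout 1, while high-fat knockouts 2 to 4 had 51 to 53.4 CPM.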

How the results depend on the processing

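Of 2901 values of single members under the alternatives (all 42 for knockout over control on the high-fat diet and diet in knockouts, but only 3 members on chow, 6 for diet in controls and 24 for the interaction), 2680 kept their direction and side of the threshold, 136 gained and 67 lost a call, and 18 changed sign, none of them called. The members' median log2 fold change in each comparison moved by no more than the SD between livers, 0.21, at the digits given; the furthest was the interaction, 0.70 without chow control 1 against 0.91. For each count that moved, the cause was not tested.

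For knockout over control on the high-fat diet (1 member and 16 genes called), members called were 15 with DESeq2, 2 with voom, upper-quartile scaling or a CPM filter, 21 with no filter, and 0 with only the groups compared or the covariate. Genes called were 578, 31 with voom, 34 with upper-quartile scaling, 964 with no filter, 1 with only the groups compared and 0 with the covariate. On chow (0 members, 2 genes) DESeq2 and no filter each called 1 member, Oasl1, and 39 and 308 genes; the groups alone gave 1 gene and the covariate 0. For diet in controls (0 members, 262 genes) members called were 2 with no filter (Irf7 and Bst2, lower), 1 with high-fat control 3 and chow knockout 1 left out (Bst2, lower) and 1 with the covariate (Samd9l, higher), and genes were 719 with DESeq2, 992 with no filter, 75 with only the groups compared, 1219 with that pair left out and 1157 with the covariate. For diet in knockouts (19 members, 1516 genes) only the groups compared gave 32 members and 2793 genes, the pair left out 3273 genes and the covariate 873 genes. For the interaction (0 members, 0 genes) DESeq2 gave 6 members and 71 genes, and no filter 11 and 259.

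With each library left out in turn, genes called were 3 to 31 and members 0 to 2 for knockout over control on the high-fat diet, 0 to 4 and 0 on chow, 100 to 955 and 0 to 1 for diet in controls, 465 to 2914 and 8 to 27 for diet in knockouts, and 0 to 1 and 0 for the interaction. The Degs1 difference lay between -1.40 and -1.02 on the high-fat diet and between -1.17 and -1.12 on chow; it was no longer called with only the high-fat groups (-1.23, adjusted p = 0.138) or with the covariate (-0.92, adjusted p = 0.0535, on the high-fat diet and -0.96, adjusted p = 0.0543, on chow).

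Sign changes for knockout over control on the high-fat diet were Parp9 (0.01 with voom, 0.03 with upper-quartile scaling, 0.08 with the pair left out, 0.25 with the covariate, -0.15 to 0.08 with a library left out), Trim25 (-0.04) and Helz2 (-0.03) with the covariate, and Ifi35 (-0.10 to 0.32 with a library left out). For diet in knockouts they were Trim25 (0.00 with upper-quartile scaling, -0.15 to 0.01 with a library left out), Bst2 (0.01 with upper-quartile scaling, 0.42 with the covariate, -0.24 to 0.06 with a library left out) and Helz2 (-0.23 with the covariate). No paired analysis was possible because each liver carries its own animal number and no number is shared between groups. Depth limits members at the lowest levels, such as Oas1g, and the interferon genes themselves.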
